A study of Homo sapiens with 9 samples.

Results

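The MPZL genes MPZL1, MPZL2 and MPZL3 were followed through MPZL3 knockdown in OVCAR4 cells together with F11R, CXADR, JAM3 and IGSF8, adhesion genes of the immunoglobulin superfamily, and with FDXR, which encodes a mitochondrial enzyme described as a partner of MPZL3 and is itself no immunoglobulin gene. The genes were taken by their symbols, 8 of the 58735 genes of the count table, and all 8 were among the 16928 genes with enough counts to be tested. OVCAR4 is an established human cell line of ovarian serous adenocarcinoma. The data were RNA-seq counts of 9 libraries in 3 groups of 3 biological replicates: cells expressing the scr control, a scrambled shRNA in the pLKO.1 vector, and cells expressing shMPZL3 #1 or shMPZL3 #2, short hairpin RNAs against different parts of the MPZL3 transcript. All groups were labelled wild type in genotype, were transduced with lentivirus and were selected with puromycin, and the comparisons ask how a lower MPZL3 level goes with the RNA of its relatives.

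Proteins of this kind carry immunoglobulin domains on the outside of the cell and a short tail inside it, and they meet partners on the neighbouring cell at epithelial junctions. Junctional adhesion molecules (F11R, also called JAM-A, and JAM3, also called JAM-C) and CXADR, the coxsackievirus and adenovirus receptor, bind scaffold proteins under the membrane, whereas IGSF8, also called EWI-2, sits in complexes with tetraspanins. MPZL1 binds the phosphatase SHP2 through its tail, and MPZL2 and MPZL3 are its epithelial relatives. FDXR, ferredoxin reductase, passes electrons from NADPH to ferredoxins for steroid and iron-sulfur cluster synthesis in mitochondria.

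The sites of both shRNAs are shown because they decide which transcripts each can reach. They were read from GENCODE release 29 transcript MPZL3-201 on GRCh38, 5′ to 3′ in the sense of the transcript, with capitals for the 7 bases that pair with guide positions 2 to 8, the seed.
shMPZL3 #1: gagtcacctaaagACAGGAAa
shMPZL3 #2: gggatgcatctatAAGTATAa
The site of shMPZL3 #1 lies at chr11:118229850-118229870 on the minus strand, in exon 6 and the 3′ UTR of that transcript, and is present in 4 of the 4 annotated MPZL3 transcripts. The site of shMPZL3 #2 lies at chr11:118237155-118237175 on the minus strand, in exon 3 and the coding sequence, and is present in 2 of the 4. Counts were summed per gene, so the transcripts could not be told apart here.

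Total counts ranged from 15040102 to 27835841 per library, and the tested genes held 99.8% to 99.9% of them. Of 14 ovarian serous and epithelial markers 13 were tested, and their summed level was 1604 to 1665 CPM (counts scaled to a common library total) per kilobase of gene length in scr control, 1594 to 2059 with shMPZL3 #1 and 1566 to 2006 with shMPZL3 #2. WT1, a defining marker of serous carcinoma, had at most 13 counts in any library. Of the 13 tested, MECOM alone was called grouped, lower (log2 fold change -0.43, adjusted p = 0.0156, edgeR), and it was lower with each shRNA. With shMPZL3 #1, PAX8, KRT7, CDH1 and CLDN4 were called higher and MUC16 and MECOM lower. These were 30.8% and 15.4% of the list, against 16.8% and 15.3% of all genes tested. Levels of other lineages were far lower. The 8 leukocyte markers summed to 0.700 to 1.05 in scr control, 1.18 to 1.45 with shMPZL3 #1 and 1.19 to 1.98 with shMPZL3 #2, and CD68 and LYZ had at most 1 count in any library. Of the 4 leukocyte markers tested, ITGAM (3 to 46 counts a library) and CD14 (3 to 34) were called higher with both shRNAs grouped, with log2 fold changes of 2.01 (adjusted p = 0.0109, edgeR) and 1.60 (adjusted p = 0.0237), and with each shRNA. The 6 endothelial markers summed to 1.22 to 1.60, 1.13 to 1.32 and 2.13 to 2.50 in the same order, where 1 of the 4 tested, CDH5, was called higher with shMPZL3 #2. The 8 fibroblast and stromal markers summed to 2.82 to 3.62, 5.60 to 8.33 and 5.96 to 7.16, DCN was at 0 in every library and PDGFRA had at most 2 counts. Of the 4 tested, COL1A1 (1.05, adjusted p = 0.0150) and LUM (1.15, adjusted p = 0.0200) were called higher grouped and with each shRNA, and COL1A2 with shMPZL3 #1. The part of these markers in the results below was not tested.

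MPZL3 (ENSG00000160588; GRCh38 chr11:118226690-118252350, minus strand), the targeted gene, was lower in each of the 6 knockdown libraries. Normalized counts, that is counts scaled to a common library size, were 536, 611 and 587 in scr control replicates 1 to 3. They were 119, 143 and 123 with shMPZL3 #1 and 284, 380.4 and 271 with shMPZL3 #2. No group overlapped another, and shMPZL3 #1 left the least MPZL3 RNA. Relative to scr control, 22.2% remained with shMPZL3 #1 (95% interval 17.6% to 27.97%; log2 fold change -2.17 ± 0.16 SE, adjusted p = 3.73e-07, quasi-likelihood test of edgeR). For shMPZL3 #2 the remainder was 53.9% (43.3% to 66.9%; log2 fold change -0.89 ± 0.15, adjusted p = 0.000562). The direct difference of shMPZL3 #2 minus shMPZL3 #1 was 1.28 ± 0.16 on the log2 scale (adjusted p = 5.72e-05). With both shRNAs grouped, 38.1% remained (24.1% to 60.2%; adjusted p = 0.0104; two-sided exact permutation test of 6 against 3 libraries, p = 0.0238, where the smallest possible is 0.0119). In bulk RNA, fewer cells with MPZL3 RNA and less of it per cell cannot be told apart.

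Among the 8 genes, 1 was called higher and 1 lower with both shRNAs grouped at an adjusted p under 0.05, against 9.36% and 6.40% of all genes tested. With shMPZL3 #1, 2 were called higher and 1 lower, against 16.8% and 15.3%. With shMPZL3 #2, 1 was higher and 2 were lower, against 9.36% and 5.80%. Without any one scr control replicate MPZL3 was the one gene still called, grouped or with shMPZL3 #2, as it was with shMPZL3 #2 without its replicate 1 or 3. Directly between the shRNAs MPZL3 was the one gene of the 8 called, higher with shMPZL3 #2, against 7.56% of all genes in each direction. Apart from MPZL3, whose fall is the design of the study, the calls were IGSF8 (higher with each shRNA), MPZL1 (higher with shMPZL3 #1) and CXADR (lower with shMPZL3 #2). All 6 knockdown libraries lay on one side of the 3 scr control libraries at 5 of the 8 genes, against 22.8% of all genes tested. They lay above them at MPZL1, MPZL2 and IGSF8 and below them at MPZL3 and JAM3. The 5 include MPZL3, whose separation is again the design of the study, and JAM3, whose counts were low.

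**Figure D1:**
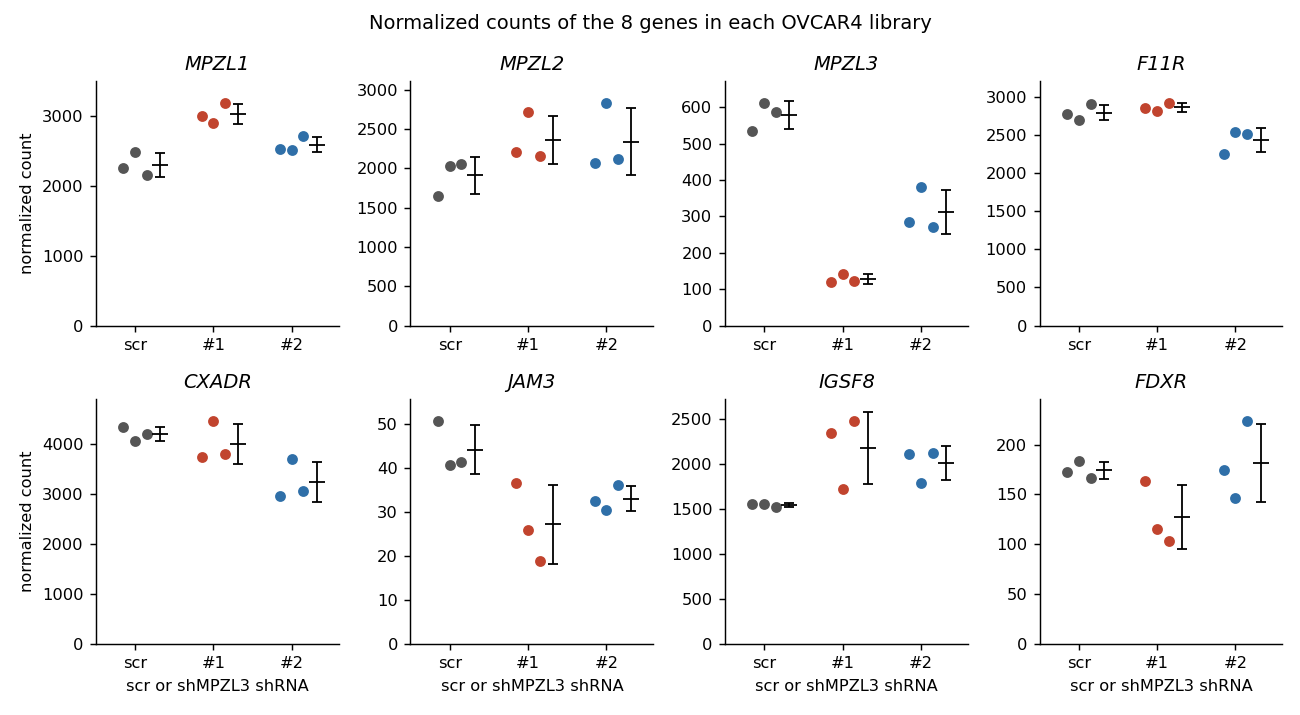
Normalized counts (y axis, linear, from 0) of the 8 genes in each library, by group (scr, shMPZL3 #1, shMPZL3 #2); points are replicates 1 to 3 from left to right, and the bar beside them is the mean with its SD. MPZL3 falls from 536 to 611 in scr control to 119 to 143 and 271 to 380.4, while the IGSF8 points with either shRNA sit above the scr control points.

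MPZL1 (ENSG00000197965; chr1:167721192-167791919, plus strand) had 2249.8, 2483 and 2152 normalized counts in scr control. The values were 3003, 2902 and 3183 with shMPZL3 #1 and 2534, 2519.7 and 2710.2 with shMPZL3 #2. Every knockdown library was above every control library, and the shMPZL3 #1 libraries were above those with shMPZL3 #2. MPZL1 rose 1.32-fold with shMPZL3 #1 (log2 fold change 0.40 ± 0.09 SE, adjusted p = 0.00373, edgeR). With shMPZL3 #2 the log2 fold change was 0.17 ± 0.09 (95% interval -0.02 to 0.37, adjusted p = 0.234), and the difference between the shRNAs was -0.23 (adjusted p = 0.112), so the rise was not shown to be particular to shMPZL3 #1. The grouped value was 0.29 ± 0.10 (adjusted p = 0.0704). It passed the threshold with DESeq2 (adjusted p = 0.0446), with a minimum of 10 counts in every library (0.0483) and as the mean of both shRNAs in the fit of all 3 groups (0.0155), where its value was 0.29 to 0.32.

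MPZL2 (ENSG00000149573; chr11:118253403-118264536, minus strand), the neighbour of MPZL3 on the chromosome, had 1646, 2028 and 2059.5 normalized counts in scr control. The values were 2208, 2715 and 2157 with shMPZL3 #1 and 2064, 2830.1 and 2121 with shMPZL3 #2. The knockdown libraries were all above the control libraries, but the lowest with shMPZL3 #2 was close to the highest control. The log2 fold change was 0.30 ± 0.13 SE with shMPZL3 #1 (adjusted p = 0.0917, edgeR), 0.29 ± 0.13 with shMPZL3 #2 (adjusted p = 0.156) and 0.30 grouped (adjusted p = 0.127; exact permutation test, p = 0.0833). MPZL2 thus did not pass the test, and its 95% interval in the grouped comparison ran from 0.02 to 0.57 before adjustment. The call depended on the fit: with shMPZL3 #1 MPZL2 passed the threshold with no filter on low counts (adjusted p = 0.0414), without shMPZL3 #2 replicate 2 (0.0462) and with the replicate number as a block (0.0154), and with shMPZL3 #2 under that block (0.0370), at log2 fold changes of 0.28 to 0.31. It was not called grouped in any of 16 alternatives.

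The share of MPZL3 in the MPZL family is given as a description, since knockdown of MPZL3 itself lowers it. Of the summed level of MPZL1, MPZL2 and MPZL3 per kilobase of gene length, MPZL3 held 16.9%, 16.5% and 16.7% in scr control. Its share was 3.26%, 3.54% and 3.31% with shMPZL3 #1 and 8.29%, 9.15% and 7.61% with shMPZL3 #2. The summed level itself was 38.9 to 45.4 CPM per kilobase in scr control, 44.8 to 49.6 with shMPZL3 #1 and 42.1 to 51.0 with shMPZL3 #2. The scr control range therefore overlapped that of each shRNA, with MPZL1 and MPZL2 making up the greater part of the sum in every library. That sum includes the targeted gene. MPZL1 and MPZL2 were each above every scr control library in all knockdown libraries, but neither was called grouped (adjusted p = 0.0704 and 0.127, edgeR). Of all genes tested, 22.8% had the 6 knockdown libraries on one side of the 3 scr control libraries.

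**Figure D2:**
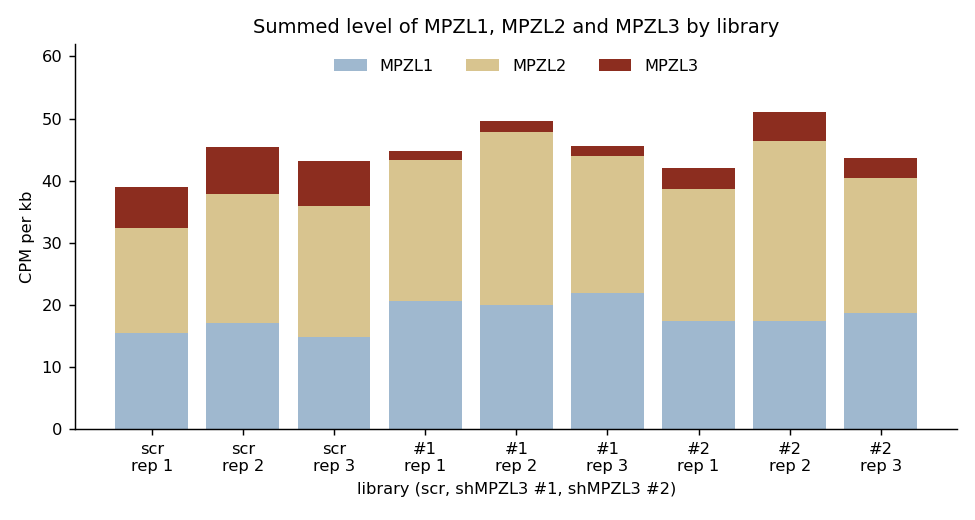
Stacked bars of the levels of MPZL1, MPZL2 and MPZL3 (CPM per kilobase, axis from 0) in each of the 9 libraries. The MPZL3 segment is 16.5% to 16.9% of the bar in scr control, 3.26% to 3.54% with shMPZL3 #1 and 7.61% to 9.15% with shMPZL3 #2.

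F11R (ENSG00000158769; chr1:160995211-161021348, minus strand), a tight junction adhesion molecule, had 2771, 2697 and 2899.5 normalized counts in scr control. It had 2854, 2805 and 2912 with shMPZL3 #1 and 2248, 2534 and 2514 with shMPZL3 #2. The shMPZL3 #1 and scr control values overlapped, whereas those with shMPZL3 #2 were lower than both. The log2 fold change was 0.03 ± 0.09 SE with shMPZL3 #1 (95% interval -0.16 to 0.23, adjusted p = 0.805, edgeR) and -0.20 ± 0.09 with shMPZL3 #2 (-0.39 to -0.01, adjusted p = 0.157). The difference between the shRNAs, -0.23, did not pass the test either (adjusted p = 0.0941).

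CXADR (ENSG00000154639; chr21:17512382-17593579, plus strand) had 4335, 4065 and 4193 normalized counts in scr control. The values were 3745, 4452 and 3800.1 with shMPZL3 #1 and 2956, 3704 and 3054 with shMPZL3 #2. The shMPZL3 #1 libraries spread around the control range, and the shMPZL3 #2 libraries were all below it. CXADR fell to 0.771 of its scr control level with shMPZL3 #2 (log2 fold change -0.37 ± 0.11 SE, adjusted p = 0.0250, edgeR), while shMPZL3 #1 gave -0.07 ± 0.11 (adjusted p = 0.659). The difference between the shRNAs was -0.30 (adjusted p = 0.0628), and it passed the threshold in 6 of 15 alternatives, DESeq2 among them, at -0.41 to -0.31 with adjusted p-values of 0.0156 to 0.0429. The call with shMPZL3 #2 was lost without any one of the 3 scr control replicates or without shMPZL3 #2 replicate 1 or 3, with adjusted p-values of 0.0612 to 0.140 and log2 fold changes of -0.40 to -0.32. Without shMPZL3 #2 replicate 2 the value was -0.49.

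Of the 8 genes, MPZL3 aside, CXADR also had the stretch most like an shRNA site. Its best match to the shMPZL3 #2 site, looked at after the CXADR values were known, covered 17 of 21 bases, at chr21:17551840-17551860 on the plus strand in exon 3 and the coding sequence of CXADR-201, and was present in 4 of 5 transcripts. Capitals mark the bases that equal the site.
CXADR: GtGATGCATCaATAAaTgTAA
Counted from 1 at the 5′ end of the site, the differences were G2T, T11A, G16A and A18G, which left 5 of the 7 seed-paired bases. In the remaining 6 genes the best match to the shMPZL3 #2 site covered 12 to 15 bases, and to the shMPZL3 #1 site no gene but MPZL3 exceeded 14. Of 16919 tested genes with transcripts, 11 reached 17 bases for the shMPZL3 #2 site, which is 0.0650%. Of the 9 of these other than MPZL3 and CXADR, 2 were called with shMPZL3 #2, both higher (22.2%, against 9.36% of all genes; edgeR), and the 9 had a median log2 fold change of 0.11. Wider sets, again without MPZL3 and CXADR, include these 9 genes. A gene's best match was taken over all its transcripts. Genes with more or longer transcripts thus had more windows to match, and this was not adjusted for. Of the 97 genes with at least 16 matching bases, 12 were lower and 5 higher with shMPZL3 #2 (12.4% and 5.15%, against 5.80% and 9.36% of all genes; median -0.09), and of the 903 with at least 15, 92 were lower and 62 higher (10.2% and 6.87%; median -0.08). For the shMPZL3 #1 site, 4 of 21 genes with at least 17 bases were lower and 3 higher with that shRNA (19.0% and 14.3%, median -0.14). All genes tested gave 15.3% and 16.8%. With at least 16 bases, 29 of 216 were lower and 42 higher (13.4% and 19.4%, median 0.01). With at least 15, 290 of 1652 were lower and 296 higher (17.6% and 17.9%, median -0.02). A match is a description of letters, and its part in the CXADR value was not tested.

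The 7-base seed match of the shMPZL3 #1 site occurred up to 1 time in a transcript of MPZL1 and of IGSF8 and up to 2 times in one of F11R and of JAM3. That of shMPZL3 #2 occurred up to 1 time in MPZL1, F11R and CXADR. For comparison, 42.1% and 23.4% of the tested genes held the respective match in a transcript. MPZL2 and FDXR held neither.

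JAM3 (ENSG00000166086; chr11:134068925-134152001, plus strand) was the lowest expressed of the 8, with 20 to 48 counts in each library. Normalized counts were 50.5, 40.6 and 41.2 in scr control, 36.6, 25.8 and 18.9 with shMPZL3 #1 and 32.4, 30.4 and 36.1 with shMPZL3 #2. All knockdown libraries were below all control libraries. The grouped log2 fold change was -0.55 ± 0.28 SE and did not pass the test (95% interval -1.14 to 0.05, adjusted p = 0.196, edgeR; exact permutation test, p = 0.0357). NCAPD3, which overlaps the gene from the other strand, had 27314 counts in all to 307 for JAM3, and the libraries did not keep the strand, so the JAM3 values are uncertain.

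IGSF8 (ENSG00000162729; chr1:160091340-160098943, minus strand) was called higher with each shRNA. Normalized counts were 1558, 1553 and 1526 in scr control, 2349.8, 1725 and 2477 with shMPZL3 #1 and 2115, 1794 and 2122 with shMPZL3 #2. The control replicates lay within a coefficient of variation of 1.13%, against 18.4% and 9.31% with the shRNAs, and replicate 2 was the lowest in each shRNA group yet above every control. The rise was 1.41-fold with shMPZL3 #1 (log2 fold change 0.50 ± 0.12 SE, adjusted p = 0.00523, edgeR) and 1.30-fold with shMPZL3 #2 (0.38 ± 0.12, adjusted p = 0.0458). Grouped, it was 0.44 ± 0.12 (adjusted p = 0.0273; exact permutation test, p = 0.0357). The difference between the shRNAs was -0.12 (95% interval -0.38 to 0.14). Without any one scr control replicate the grouped adjusted p was 0.0997 to 0.123, while the log2 fold change was 0.42 to 0.44. In those fits 453 to 815 of all genes were called higher, against 1584 with every library. With shMPZL3 #2 the call was lost in the same fits, without shMPZL3 #2 replicate 1 or 3 and with RLE normalization, with adjusted p-values of 0.0501 to 0.156. With shMPZL3 #1 it was kept in all 15 alternatives.

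FDXR (ENSG00000161513; chr17:74862497-74873031, minus strand) had 173, 183 and 166 normalized counts in scr control. The values were 164, 115 and 103 with shMPZL3 #1 and 174, 146 and 223 with shMPZL3 #2. The spread grew in both shRNA groups, with a coefficient of variation of 25.2% and 21.6% against 4.81%. The log2 fold change was -0.45 ± 0.20 SE with shMPZL3 #1 (95% interval -0.88 to -0.02, adjusted p = 0.104, edgeR) and 0.06 ± 0.20 with shMPZL3 #2 (-0.36 to 0.48, adjusted p = 0.874). The difference between them was 0.51 ± 0.20 (adjusted p = 0.0988). Without shMPZL3 #1 replicate 1, the value with shMPZL3 #1 was -0.65 (adjusted p = 0.0280) and the difference was 0.73 (adjusted p = 0.0259). Without shMPZL3 #2 replicate 2 the difference was 0.65 (adjusted p = 0.0469).

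**Figure D3:**
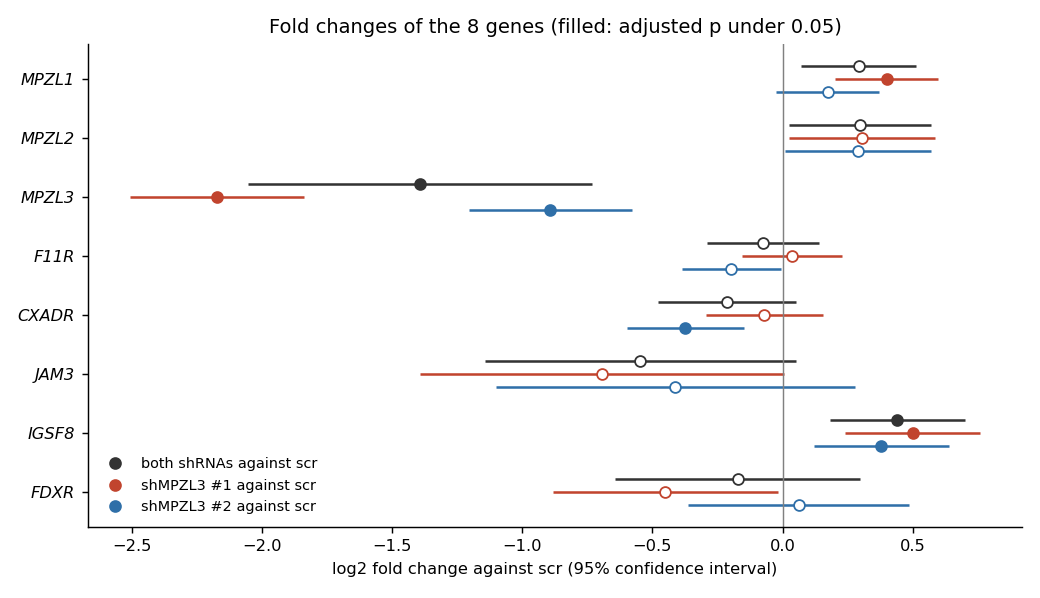
Log2 fold changes against scr control (x axis) of the 8 genes with both shRNAs grouped, with shMPZL3 #1 and with shMPZL3 #2; lines are 95% intervals before adjustment and filled points had an adjusted p under 0.05 in edgeR's test. IGSF8 is filled to the right of 0 in all 3 comparisons, MPZL3 to the left in all 3, MPZL1 with shMPZL3 #1 and CXADR with shMPZL3 #2.

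Levels were compared between the genes as CPM per kilobase of gene length. In scr control CXADR was highest at 30.6 ± 0.982 (SD, n = 3), followed by IGSF8 at 29.04 ± 0.327, F11R at 26.8 ± 0.987, MPZL2 at 19.6 ± 2.36, MPZL1 at 15.8 ± 1.17, MPZL3 at 7.09 ± 0.472, FDXR at 2.36 ± 0.113 and JAM3 at 0.394 ± 0.0497. The ranges of MPZL2 and MPZL1 overlapped in that order (exact permutation test, p = 0.2) and those of the other neighbours did not (p = 0.1 each, the smallest that 3 against 3 allows). That test takes the genes as separate samples, although they were measured in the same libraries, and within a library MPZL2 was above MPZL1 in all 3 scr controls and in all 9 libraries. CXADR stood above 90.8% of the tested genes, MPZL3 above 66.5% and JAM3 above 15.98%. With shMPZL3 #1, IGSF8 was the highest at 41.0 ± 7.56 and MPZL3, at 1.57 ± 0.158, was next to FDXR at 1.72 ± 0.435. With shMPZL3 #2, IGSF8 was again the highest at 37.8 ± 3.52, and CXADR at 23.6 ± 2.96, F11R at 23.4 ± 1.53 and MPZL2 at 24.0 ± 4.37 were within each other's spread.

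**Figure D4:**
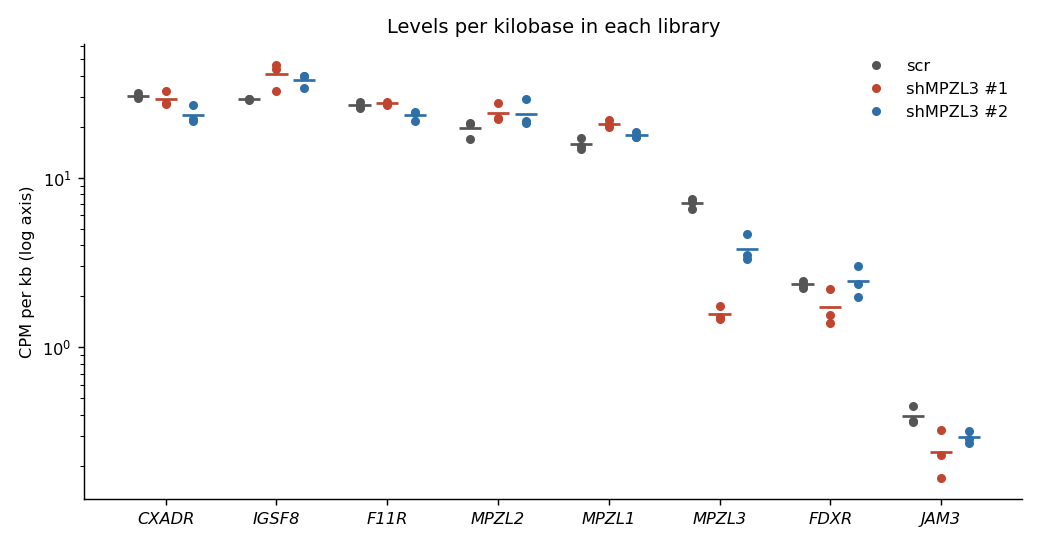
Levels in CPM per kilobase (y axis, logarithmic) of the 8 genes in the order of their scr control means; points are libraries and short lines group means. CXADR, IGSF8, F11R, MPZL2 and MPZL1 lie between 14.8 and 46.5 in every library, while MPZL3 drops from 7.09 in scr control to 1.57 and 3.83.

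The genes whose log2 levels followed MPZL3 most closely over the 9 libraries, among 9886 well expressed protein-coding genes, were HNRNPH3 (Pearson r = 0.987), GTPBP4 (0.984), RPP40 (0.982), B4GALT5 (0.978) and CDC123 (0.976). For the others the closest were DUSP23 to MPZL1 (0.9754), TBC1D5 to MPZL2 (0.951), WDR37 to F11R (0.945), MAP4K5 to CXADR (0.991), SAMM50 to JAM3 (0.981), SLC9A3R2 to IGSF8 (0.988) and AGBL5 to FDXR (0.955). These values describe 9 libraries in 3 groups that share their normalization, and they were the highest among many genes.

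Companion genes were grouped by their relation to the 8. Of 70 listed, 58 were tested, and with both shRNAs grouped 6 were called higher and 6 lower, 10.3% in each direction against 9.36% and 6.40% of all genes. With shMPZL3 #1 they numbered 10 higher and 11 lower (17.2% and 19.0%, against 16.8% and 15.3%), and with shMPZL3 #2 2 higher and 5 lower (3.45% and 8.62%, against 9.36% and 5.80%). Without scr control replicate 1, 2 or 3 the 12 grouped calls became 1, 2 and 3, and without shMPZL3 #1 replicate 1 they became 7. NECTIN1 was called in all 16 alternatives tried. With shMPZL3 #2 the 7 calls became 3 or 4 without scr control replicate 1 or 2 or without shMPZL3 #2 replicate 1 or 3.

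Of 21 further junctional immunoglobulin genes 11 were tested, and 2 rose and 1 fell with both shRNAs grouped (18.2% and 9.09%, against 9.36% and 6.40% of all genes), with a median log2 fold change of 0.18 against 0.02 over all genes. At 11 genes, 1 call is 9.09%, so these counts lay within about 1 gene of the share over all genes. The called genes were nectins, adhesion molecules that bind afadin beneath adherens junctions, while NECTIN2, named after its values were seen, had 0.12 (adjusted p = 0.552). NECTIN1 had 669, 673 and 698 normalized counts in scr control, 1159, 984 and 1200.2 with shMPZL3 #1 and 1042, 835 and 979 with shMPZL3 #2, without overlap. Its grouped log2 fold change was 0.60 ± 0.12 SE (adjusted p = 0.00567, edgeR). NECTIN4 rose as well, from 278 to 319 normalized counts in scr control to 488 to 698 with shMPZL3 #1 and 338 to 455 with shMPZL3 #2 (0.72 ± 0.19, adjusted p = 0.0229). It was called with shMPZL3 #1 but not with shMPZL3 #2 (adjusted p = 0.0593, edgeR). NECTIN3 fell from 1745 to 1978 normalized counts to 1186 to 1612 and 847 to 1004 (-0.68 ± 0.17, adjusted p = 0.0193), and fell further with shMPZL3 #2 than with shMPZL3 #1 (difference -0.59 ± 0.12, adjusted p = 0.00267). The genes of this list that were not tested, JAM2, JAML and GPA33 among them, had too few counts.

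All 9 genes of the EWI proteins and tetraspanins, the family and the membrane partners of IGSF8, were tested, and 3 rose with both shRNAs grouped (33.3%, against 9.36% of all genes), with a list median of 0.16. IGSF3, an EWI protein, had 606, 826 and 894 normalized counts in scr control, 1326, 1588 and 1745 with shMPZL3 #1 and 1066, 1115 and 1058 with shMPZL3 #2. Its grouped log2 fold change was 0.76 ± 0.18 SE (adjusted p = 0.0149, edgeR), and it was lower with shMPZL3 #2 than with shMPZL3 #1 by -0.52 ± 0.13 (adjusted p = 0.0128). PTGFRN, another EWI protein, went from 1639 to 1729 in scr control to 2586 to 2718 and 1889 to 2211 (0.47 ± 0.12, adjusted p = 0.0241). CD82, a tetraspanin, went from 428 to 591 to 766 to 1049.8 and 632 to 718 (0.56 ± 0.16, adjusted p = 0.0320). Every knockdown library lay above every control library for these genes and for IGSF8, and the libraries overlapped at the rest of the list. Over all genes tested, the 6 knockdown libraries lay on one side of the 3 controls at 22.8%. IGSF3, PTGFRN and CD82 were all called with shMPZL3 #1 (33.3% of the list, against 16.8% of all genes). With shMPZL3 #2, IGSF3 alone was called (11.1%, against 9.36%), and at 9 genes 1 call is 11.1%. PTGFRN and CD82 had adjusted p-values of 0.0578 and 0.0940 with shMPZL3 #2 (edgeR). CD9 and CD81, which are among the tetraspanins known to bind IGSF8, had grouped log2 fold changes of -0.02 (adjusted p = 0.951) and 0.14 (adjusted p = 0.355). For CD9 the grouped value averaged -0.22 with shMPZL3 #1 and 0.17 with shMPZL3 #2, neither called, and the difference between the shRNAs was called at 0.39 ± 0.10 (adjusted p = 0.0109).

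The list of 20 cytoplasmic scaffolds and partners includes proteins that bind the tails of these adhesion proteins, but not all 20 do so. Of the 20, 1 rose and 2 fell with both shRNAs grouped (5% and 10%, against 9.36% and 6.40% of all genes), with a median of 0.10. These shares lay within 1 gene of those over all genes. PARD6B, a polarity adaptor, went from 412 to 505 normalized counts in scr control to 293 to 304.04 with shMPZL3 #1 and 358 to 403 with shMPZL3 #2 (log2 fold change -0.44 ± 0.13 SE, adjusted p = 0.0398, edgeR). CASK, a membrane scaffold kinase, went from 1149 to 1272 to 1477 to 1657 and 1331 to 1581 (0.33 ± 0.10, adjusted p = 0.0371). PARD6B and CASK were called with shMPZL3 #1 but not with shMPZL3 #2 (adjusted p = 0.142 and 0.0888, edgeR). PTPN11, which encodes SHP2, the phosphatase bound by MPZL1, went from 4310.1 to 4621 to 3294 to 3960.4 and 3246 to 3922 (-0.32 ± 0.10, adjusted p = 0.0384). It overlaps RPL6 on the opposite strand, with 100340 counts against 34281, and is uncertain without strand. The scaffolds TJP1 and AFDN, which bind F11R and the nectins, had grouped log2 fold changes of 0.12 and -0.02 (adjusted p = 0.364 and 0.899).

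Of 20 ferredoxin and iron-sulfur genes around FDXR 18 were tested, and 3 fell with both shRNAs grouped (16.7%, against 6.40% of all genes), with a median log2 fold change of -0.21. At 18 genes, 1 call is 5.56%, so this count lay within 2 genes of the share over all genes. BOLA3, an iron-sulfur cluster carrier of mitochondria, had 935, 890.4 and 958 normalized counts in scr control, 757, 626 and 579.8 with shMPZL3 #1 and 657, 800.4 and 691 with shMPZL3 #2. Its grouped log2 fold change was -0.44 ± 0.11 SE (adjusted p = 0.0199, edgeR). ISCA1 and ISCA2, assembly factors for mitochondrial iron-sulfur proteins, had values of -0.41 ± 0.11 (adjusted p = 0.0244) and -0.54 ± 0.15 (adjusted p = 0.0316), but ISCA2 overlaps NPC2 on the opposite strand, with 38533 counts against 3327. ISCA2 was called with shMPZL3 #1 but not with shMPZL3 #2 (adjusted p = 0.0985, edgeR). With shMPZL3 #1, 8 of the 18 fell and 1 rose (44.4% and 5.56%, against 15.3% and 16.8% of all genes), and with shMPZL3 #2, 2 fell (11.1%, against 5.80%). The count that fell with shMPZL3 #2 lay within 1 gene of the share over all genes. Directly between the shRNAs 4 were higher and 1 was lower with shMPZL3 #2 (22.2% and 5.56%, against 7.56% each). NFS1, the cysteine desulfurase of cluster synthesis, was named after its values were seen: its log2 fold change was -0.77 ± 0.12 with shMPZL3 #1 (adjusted p = 0.000149) and -0.06 ± 0.12 with shMPZL3 #2 (adjusted p = 0.754), a difference of 0.70 (adjusted p = 0.000723). FDX1, a ferredoxin that FDXR reduces, had 0.07 grouped (adjusted p = 0.793), from 0.25 with shMPZL3 #1 and -0.15 with shMPZL3 #2, neither called, and was the 1 gene lower with shMPZL3 #2 in the direct difference (-0.40 ± 0.12, adjusted p = 0.0327). FDX2 and CYP11B1 were not tested for too few counts.

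**Figure D5:**
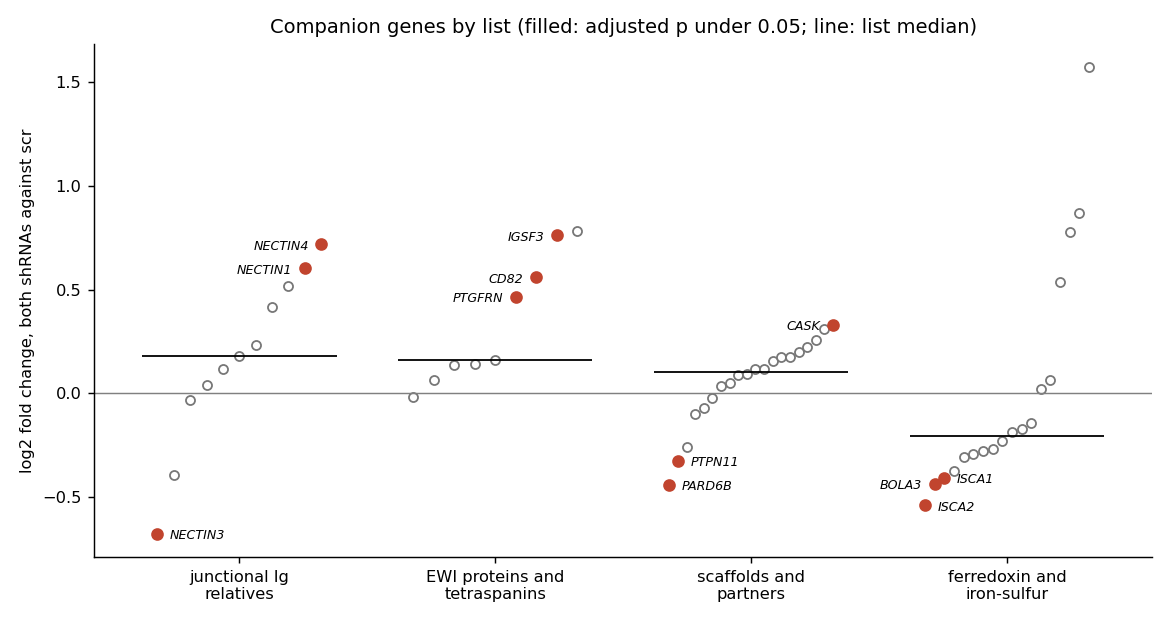
Log2 fold changes with both shRNAs grouped against scr control (y axis) of the 58 tested companion genes, ordered within each list; filled named points had an adjusted p under 0.05 and lines are list medians (0.18, 0.16, 0.10 and -0.21 from left to right). The open point at 1.57 is CYP11A1, with 222 counts over the 9 libraries and an adjusted p of 0.0518.

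The genes that lie within 500 kb of MPZL3 were examined for the chromosome 11 neighbourhood that MPZL2 shares. Of 43 such genes 22 were tested, and 4 fell and 0 rose with both shRNAs grouped (18.2% and 0%, against 6.40% and 9.36% of all genes), with a median of -0.01. With shMPZL3 #1, 5 fell and 2 rose (22.7% and 9.09%, against 15.3% and 16.8%). With shMPZL3 #2, 2 fell and 0 rose (9.09% and 0%, against 5.80% and 9.36%). TMPRSS4, a membrane serine protease, had 2036, 1769 and 1973 normalized counts in scr control, 1302, 1166 and 1089 with shMPZL3 #1 and 1144, 1185 and 1301 with shMPZL3 #2. It fell with each shRNA (log2 fold change -0.70 ± 0.10 SE with shMPZL3 #1 and -0.67 ± 0.10 with shMPZL3 #2; grouped adjusted p = 0.000681, edgeR), and the difference between them was 0.03 ± 0.10 (adjusted p = 0.883). FXYD6, a regulator of the sodium pump, fell by 0.80 on the log2 scale (adjusted p = 0.0362), KMT2A, a histone methyltransferase, by 0.31 (adjusted p = 0.0407) and DDX6, an RNA helicase, by 0.28 (adjusted p = 0.0385). FXYD6 and KMT2A were called with shMPZL3 #1 but not with shMPZL3 #2 (adjusted p = 0.0978 and 0.108, edgeR). Without any one scr control replicate, or without shMPZL3 #1 replicate 1 or 3, TMPRSS4 alone was still called, and without shMPZL3 #2 replicate 3 the number was 2.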

How the data were processed

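Poly-A selected, non-directional RNA-seq libraries of OVCAR4 cells were analysed. The authors deposited raw counts per gene, without normalization or pooling, made per the submitters' processing notes with HISAT2 2.0.5 and featureCounts 1.5.0-p3 on hg38. Rows matched GENCODE release 29 in identifier and position for all 58735 genes, and the deposited gene length gave levels per kilobase. Counts were analysed with edgeR 4.0.16 (R 4.3.3, with limma 3.58.1): filterByExpr, TMM, two-sided quasi-likelihood tests and Benjamini-Hochberg adjustment over 16928 genes, called at an adjusted p under 0.05. Both shRNAs were grouped against scr control, then each was fitted in 3 groups. Log2 CPM used a prior count of 2. DESeq2 1.42.0, which the study used, other normalizations and filters, a replicate block and leaving out each library were alternatives. shRNA sites were placed by matching the target sequences in the study's methods to the transcript. In simulated counts, 43 of 71 genes changed 1.5-fold, 43 of 56 changed 2-fold and 66 of 73 changed 4-fold were recovered in the grouped comparison. The simulated fold was the same with both shRNAs, so these genes did not differ between them. That 0 of them were called in the direct comparison of the shRNAs therefore does not measure its recovery. In the data, the direct comparison called 1279 genes upward for shMPZL3 #2 and 1280 downward. Recovery in the grouped comparison of genes that differ between the shRNAs was not tested. The 8 genes and all lists were chosen with earlier results of these data known. Companion genes were named by a rule, up to 3 per list called in the grouped comparison by absolute log2 fold change, up to 5 called within 500 kb of MPZL3, and for likeness the genes with the highest correlation among those whose mean log2 CPM reached 3. Other genes were named as lineage markers or by their known relation to the 8. No replicates were alike within counting noise, and p-values measure the spread between these samples.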

Additional observations from a re-analysis of the deposited data

Results flagged for a closer look

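The log2 difference of MPZL3 between the shRNAs (shMPZL3 #2 minus shMPZL3 #1) was 1.28 ± 0.16 SE in the direct test (adjusted p = 5.72e-05, edgeR), so the effect of the shRNAs on their target differed in size. All 3 libraries with shMPZL3 #2 were above all 3 with shMPZL3 #1, at 271 to 380.4 against 119 to 143 normalized counts. The value was 1.12 to 1.36 over its 15 alternatives.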

How the results depend on the processing

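Of 744 values of 48 gene results under alternatives, 642 kept their direction and side of the threshold, 82 lost a call, 16 gained one and 4 changed sign, the last at uncalled values: FDXR with shMPZL3 #2 (-0.11 without shMPZL3 #2 replicate 3, and -0.11 to 0.19 over single libraries left out) and MPZL2 between the shRNAs (0.10 without shMPZL3 #1 replicate 2, 0.05 and 0.04 without shMPZL3 #2 replicate 1 and 3, and -0.17 to 0.10 over all). MPZL3 was called in every alternative, from -1.62 to -1.25 grouped, -2.26 to -2.10 with shMPZL3 #1 and -1.06 to -0.79 with shMPZL3 #2. Leaving out single libraries, the 8 genes gave 1 to 2 calls grouped, 1 to 3 with shMPZL3 #2 and 1 to 3 between the shRNAs, where upper-quartile normalization, DESeq2, a minimum of 10 counts and the replicate block gave 2 each, MPZL3 and CXADR. Companion calls ranged from 1 to 14 grouped and 3 to 10 with shMPZL3 #2, and calls within 500 kb from 1 to 6. The mean of both shRNAs in the 3-group fit gave 19 companion calls. For all genes, grouped calls were 453 to 1737 higher and 172 to 1450 lower with a library left out, against 1584 and 1083. By log2 CPM without gene length 5 of 8 ranks of level were kept. Samples shared replicate numbers only: correlations of same-numbered deviations ran from -0.001 to 0.218, though each sample of one shRNA correlated best with its own number in the other. The replicate block called MPZL2 higher with each shRNA (0.30 and 0.28) and gave 14 companion calls with shMPZL3 #2 and -1.40 for MPZL3 grouped. The cause of these changes was not tested, and fewer libraries also mean a weaker test. Depth limits JAM3, at 20 to 48 counts a library.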
